A study of Mus musculus with 8 samples.

Results

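The genes followed here belong to extracellular matrix breakdown, measured in primary murine microglia. They are the matrix metalloproteinases (MMPs) Mmp2, Mmp3, Mmp8, Mmp9, Mmp10, Mmp12, Mmp13 and Mmp14, and the tissue inhibitors of metalloproteinases (TIMPs) Timp1 and Timp2. These 10 genes were chosen by name from the 52636 Ensembl genes of the count table, which holds 23 MMP and 4 TIMP genes in all. The cells were wild-type microglia, labelled C57BL/6 (the methods give C57BL/6N for the wild-type pups), shaken off the astrocyte layer of mixed glial cultures of neonatal brain and kept in DMEM with 10% serum and 10 ng/ml of the growth factor CSF-1. They received vehicle or 5 µg/ml lipopolysaccharide (LPS), a bacterial cell wall component sensed by Toll-like receptor 4, for 24 h. Each group had 4 libraries of poly(A) RNA. Vehicle libraries held 21370879 to 26129375 counts and LPS libraries 20071921 to 30604447. Replicates are numbered 1 to 4 in each group and called biological, but nothing says that they came from separate animals or cultures, so p-values measure the spread between these samples. Cultured neonatal cells in serum differ from microglia in the adult brain, and transcript counts do not measure latent or active enzyme.

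MMPs are zinc-dependent endopeptidases, mostly secreted as inactive proenzymes that are activated by proteolysis outside the cell. Together they cleave collagens, laminins, elastin, proteoglycans and many cell surface proteins and cytokines, and TIMPs bind and block the active enzymes. In the brain, microglia are a source of several MMPs, which are known for their action on the basal lamina of blood vessels in inflammation.

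Microglial markers were present in every library. Their summed level over 10 genes was 10374 to 12523 counts per 1000000 counts of the TMM-scaled library (CPM) with vehicle and 2269 to 2627 CPM with LPS. Of these markers, all tested, 8 were lower after LPS and none was higher by edgeR's quasi-likelihood test at an adjusted p under 0.05, against 33.8% of all tested genes lower. The 2 not called, named after their values were seen, were Aif1 (log2 fold change 0.00, adjusted p = 0.993) and Tmem119 (-1.21, adjusted p = 0.0589). C1qa, a complement subunit, was the most abundant per length with vehicle and over both groups together, while C1qb and Tyrobp stood above it with LPS. C1qa fell from 2054 ± 480 to 434 ± 83.2 CPM (SD, n = 4). Of 10 neutrophil markers, 8 (Ly6g, Mpo, Elane, Ngp, Ltf, S100a9, Cxcr2 and Retnlg) had 3 counts or fewer in every library. S100a9 had 0 counts in every library while S100a8 had 10570 to 19604 with LPS, and the cause of this was not tested. S100a8 made up nearly all of that list's sum with LPS, at 777 ± 270 of 778 ± 272 CPM, and with vehicle it was at 0.365 ± 0.318 of 0.460 ± 0.342 CPM. Cldn5, Tek, Erg, Tie1 and Emcn, 5 of 10 endothelial markers, were likewise at 3 counts or fewer, as were 1 of 10 fibroblast markers (Twist2) and 1 of 10 astrocyte markers (Gjb6). The endothelial list summed to 65.0 ± 22.7 CPM with vehicle and 246 ± 35.0 CPM with LPS, with the VEGF receptor gene Flt1 most abundant per length (48.6 ± 23.6 and 165 ± 52.9 CPM). The other 9 endothelial markers summed to 16.4 ± 5.85 and 80.7 ± 24.0 CPM. Among them, Egfl7 was lower in mean with LPS, at 0.539 ± 0.332 CPM with vehicle and 0.138 ± 0.0614 CPM with LPS. It was named after its values were seen and was too low to be tested. Of 4 endothelial markers tested, 3 were higher (Flt1, 1.77 on the log2 scale, Pecam1, 4.33, and Cdh5, 2.98, the last 2 named after their values were seen) and none was lower, against 30.3% of all tested genes higher. With the replicate number as a block, all 4 of these were higher, against 29.7% of all tested genes. In that fit 9 microglial markers were lower, against 35.6%. The fibroblast list summed to 3.44 ± 2.28 and 12.8 ± 8.76 CPM, with Dcn, decorin, most abundant with LPS (0.136 ± 0.0886 and 8.90 ± 7.07 CPM). The other 9 fibroblast markers summed to 3.31 ± 2.22 CPM with vehicle and 3.94 ± 1.83 CPM with LPS. Among them, the collagen genes Col1a1, Col1a2 and Col3a1, named after their values were seen and too low to be tested, stood at 0.530 ± 0.678, 0.392 ± 0.486 and 0.286 ± 0.366 CPM with vehicle and at 0.0954 ± 0.0739, 0.0272 ± 0.0545 and 0.0266 ± 0.0312 CPM with LPS. Pdgfrb was also lower in mean with LPS, while Col6a3, Lum, Fbln1 and Postn were higher, all named after their values were seen. Postn was at 1.10 ± 0.506 CPM with vehicle and 2.36 ± 1.36 CPM with LPS. Of 3 fibroblast markers tested, 1 (Dcn) was higher and 0 lower, against 30.3% of all tested genes higher. With the replicate number as a block 2 (Dcn and Postn) were higher, against 29.7%. The fall of most microglial markers accompanies each change described here, and neither its part nor that of the other cell type markers was tested. In bulk RNA, fewer cells of a type and less RNA per cell cannot be told apart.

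Upstream sequence is shown for the 4 genes whose promoters hold the letters marked in capitals and for 3 others that lack them. Of the 10 genes, 8 were matched in the RefSeq promoter table (GRCm38.p6), which gives 250 bases before and 50 after each start. Mmp2 and Mmp9 were not matched. The 120 bases that end at the start site are printed 5′ to 3′ on the gene's strand. Capitals mark TGAGTCA, in either orientation, the element bound by AP-1 (dimers of Fos and Jun proteins), and TATAAA, the TATA box core, on the gene's strand.
Mmp13, chr9:7272394-7272513, plus strand: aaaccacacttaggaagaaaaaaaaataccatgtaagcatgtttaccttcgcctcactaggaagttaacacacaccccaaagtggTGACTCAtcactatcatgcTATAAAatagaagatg
Mmp3, chr9:7445702-7445821, plus strand: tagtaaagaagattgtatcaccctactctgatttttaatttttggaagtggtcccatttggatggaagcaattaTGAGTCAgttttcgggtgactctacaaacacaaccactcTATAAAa
Mmp10, chr9:7502222-7502341, plus strand: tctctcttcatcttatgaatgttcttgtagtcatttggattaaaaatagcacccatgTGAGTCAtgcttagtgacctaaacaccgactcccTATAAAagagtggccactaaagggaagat
Mmp12, the second of its starts, chr9:7347254-7347373, plus strand: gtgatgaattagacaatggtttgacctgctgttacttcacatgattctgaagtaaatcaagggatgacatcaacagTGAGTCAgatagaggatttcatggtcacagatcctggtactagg
Mmp8, chr9:7558309-7558428, plus strand: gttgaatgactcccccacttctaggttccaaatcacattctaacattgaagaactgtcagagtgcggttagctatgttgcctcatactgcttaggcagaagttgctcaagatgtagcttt
Timp1, chrX:20870046-20870165, plus strand: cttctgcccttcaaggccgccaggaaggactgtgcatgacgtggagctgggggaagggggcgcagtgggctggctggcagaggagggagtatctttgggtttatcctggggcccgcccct
Timp2, chr11:118355412-118355531, minus strand: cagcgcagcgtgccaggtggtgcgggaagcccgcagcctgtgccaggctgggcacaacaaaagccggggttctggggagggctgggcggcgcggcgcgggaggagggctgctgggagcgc

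TGAGTCA began 35 bases before the start of Mmp13, 46 before that of Mmp3, 63 before that of Mmp10 and 44 before the second start of Mmp12. TATAAA lay in the same 4 windows, and in Mmp12 it lay 4 bases past the start, outside the printed stretch. It began 16 bases before the start of Mmp13, 7 before that of Mmp3 and 29 before that of Mmp10. All these distances depend on the start sites listed, and whether the letters act as a TATA box was not tested. Across 27025 genes of the table, 5.95% had TGAGTCA in a window of this size, 9.77% had TATAAA and 0.736% had both in the same window. The kappa B consensus bound by NF-kB, searched on both strands, was found in 9.55% of genes and, among the 8 matched members, only at the other start of Mmp12. Mmp1a, Mmp1b and Mmp7 also held both elements, and none of them had more than 9 counts in any library. A match is a description of letters and not of binding, and absent letters say nothing about a factor.

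After 24 h of LPS, 7 of the 10 genes were higher (Mmp2, Mmp3, Mmp8, Mmp10, Mmp13, Mmp14 and Timp1), Timp2 was lower, and Mmp9 and Mmp12 did not pass the test. A gene was called when its adjusted p in edgeR's quasi-likelihood test, corrected over 13847 tested genes by the Benjamini-Hochberg method, was under 0.05. By that rule 64.1% of all tested genes were called, 30.3% higher and 33.8% lower, so a changed gene is common in this comparison. Of these calls 47.2% were higher, and 19.0% were when libraries were scaled to their totals without TMM. The median log2 fold change was 4.07 over the 10 genes and -0.11 over all tested genes. The groups did not overlap for the 8 called genes, as for 60.2% of all tested genes (28.7% higher and 31.5% lower). All 8 had a log2 fold change of at least 1 in size. Of all tested genes, 37.7% were both called and changed by at least 1. With the replicate number as a block, 8 of the 10 genes were higher, against 29.7% of tested genes higher and 65.3% called, and DESeq2 called 6 higher, against 24.8% of the genes it tested. All 10 genes passed the filter on low counts, but Mmp3, Mmp10 and Timp1 had fewer than 10 counts in at least 1 vehicle library. Mmp3, Mmp10 and Timp1 passed only with their LPS libraries, so their part in the counts and median above is not independent of the filter. With 10 counts required of every library they were not tested, and 4 of the 10 genes were higher, against 3595 of 11203 tested genes. In the plot of levels by library, the points of Mmp13, Timp1 and Timp2 lie far further apart between the groups than within them.

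**Figure D1:**
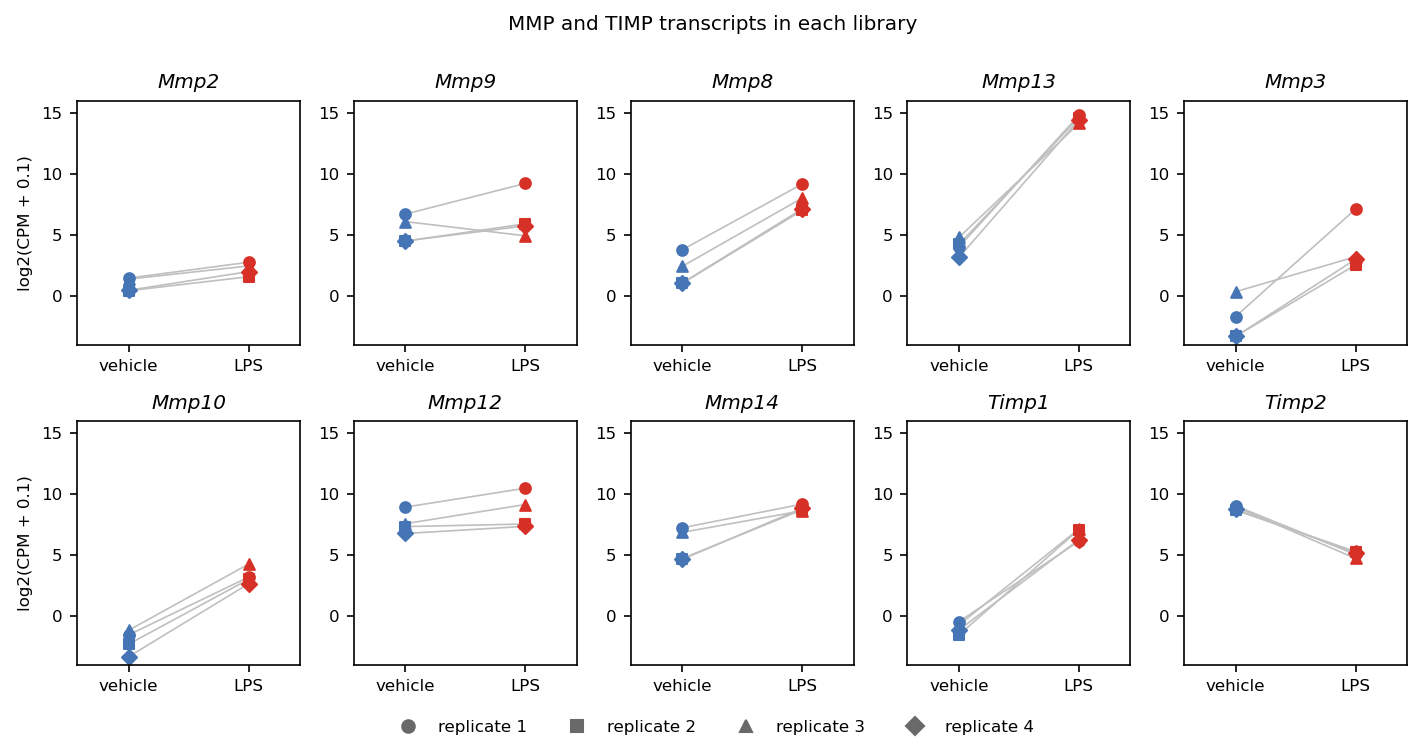
Level of each of the 10 genes in each library, as log2(CPM + 0.1), with vehicle in blue and LPS in red; grey lines join libraries of the same replicate number. Mmp13 rose from 8.84 to 27.8 CPM with vehicle to 18227 to 29046 CPM with LPS, while the groups overlap for Mmp9 and Mmp12.

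The collagenases Mmp13 and Mmp8 cleave fibrillar collagens. Mmp13 (ENSMUSG00000050578, chr9:7272514-7283331 in GRCm38) was measured at 16.1, 18.6, 27.8 and 8.84 CPM in vehicle libraries 1 to 4 and at 29046, 25463, 18227 and 22362 CPM in LPS libraries 1 to 4. Every LPS library lay far above every vehicle library. The log2 fold change was 10.38 (SE 0.47, adjusted p = 2.48e-07), a 1333-fold rise. By this log2 fold change Mmp13 stood 21st of the 13847 tested genes. In the LPS libraries its transcripts took 1.90% ± 0.480 of all counts, against 0.00223% ± 0.000905 with vehicle. It was number 3 of all genes by mean CPM after LPS and number 5 per length, from number 6329 and number 4888 with vehicle. LPS library 3 held the lowest share of the 4, at 1.28%, and LPS library 1 the highest, at 2.42%.

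Mmp8 (chr9:7558456-7568485), known as the neutrophil collagenase, was measured at 13.7, 1.94, 5.27 and 1.99 CPM with vehicle and at 581, 130, 262 and 141 CPM with LPS. Libraries numbered 1 and 3 were the higher ones in both groups, and the groups did not overlap. Its log2 fold change was 5.60 (SE 0.80, adjusted p = 0.000199). The ratio of LPS to vehicle between libraries of the same number ran from 42.4 to 70.7, far closer than the levels themselves, and with the replicate number as a block the SE was 0.18. Without vehicle library 1 the log2 fold change was 6.53. Of the 10 neutrophil markers, 8 were at 3 counts or fewer in every library, S100a8 rose as given above, and Camp, an antimicrobial peptide gene with too few counts to be tested, had 3, 0, 1 and 0 counts with vehicle and 50, 6, 11 and 6 with LPS. Both S100a8 and Camp were highest in LPS library 1, as Mmp8 was, and their part in its rise was not tested.

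The stromelysins Mmp3 and Mmp10 degrade proteoglycans, laminin and fibronectin and can activate other proMMPs. Mmp3 (chr9:7445822-7455975) was measured at 0.210, 0, 1.17 and 0 CPM with vehicle, from 6, 0, 37 and 0 counts, and at 140, 5.77, 9.19 and 7.95 CPM with LPS. The groups did not overlap, but LPS library 1 stood at 140 CPM while the other LPS libraries lay below 10 CPM. The log2 fold change was 6.79 (SE 1.48, adjusted p = 0.00271), and it was 4.41 without LPS library 1 (adjusted p = 0.00392) and 9.17 without vehicle library 3. Mmp10 (chr9:7502352-7510240) was measured at 0.245, 0.104, 0.349 and 0 CPM with vehicle and at 9.16, 8.06, 19.3 and 6.22 CPM with LPS. Here LPS library 3 was the highest and the groups were well apart, with a log2 fold change of 5.87 (SE 0.64, adjusted p = 3.55e-05). Mmp3 and Mmp10 share some exon sequence: 8.39% of the 50-base windows of Mmp3 transcripts occur in Mmp10 or Gm15244 and 8.37% of those of Mmp10 occur in Mmp3, and only uniquely aligned reads were counted. The part of such shared sequence in the counts was not tested.

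The gelatinases Mmp2 and Mmp9 cleave denatured collagen and collagen IV of the basal lamina. Mmp2 (chr8:92827291-92853420) was measured at 2.66, 1.25, 2.51 and 1.28 CPM with vehicle and at 6.70, 2.89, 5.41 and 3.90 CPM with LPS, from 36 to 116 counts a library. The lowest LPS library lay just above the highest vehicle library. Its log2 fold change of 1.29 (SE 0.36, adjusted p = 0.00979) lost the call when libraries were scaled to their totals without TMM, at 0.62 (adjusted p = 0.128). Mmp9 (chr2:164940780-164955850) was measured at 105, 22.6, 68.5 and 22.8 CPM with vehicle and at 604, 60.4, 30.5 and 53.8 CPM with LPS. The groups overlapped, and replicate 3 had less Mmp9 with LPS than with vehicle while the other replicates had more. The log2 fold change was 1.77 (SE 0.95, adjusted p = 0.128), and without LPS library 1 it was -0.18 (adjusted p = 0.792). The difference for Mmp9 was not larger than the spread between libraries.

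Mmp12, the macrophage metalloelastase, and Mmp14, a membrane-anchored MMP that activates proMmp2 at the cell surface together with Timp2, were the other MMPs with substantial levels before LPS. Mmp12 (chr9:7344381-7369499) was measured at 496, 164, 193 and 110 CPM with vehicle and at 1452, 189, 574 and 166 CPM with LPS. Vehicle library 1 stood above LPS libraries 2 and 4, so the groups overlapped. The log2 fold change was 1.31 (SE 0.72, adjusted p = 0.135). Within replicate numbers, however, LPS was above vehicle in 4 of 4 pairs, by 2.93, 1.16, 2.97 and 1.50-fold, and with the replicate number as a block the log2 fold change of 0.98 (SE 0.25, adjusted p = 0.00867) passed the test. Of the exon sequence of Mmp12, 2.17% overlaps that of Mmp1b on the opposite strand, and whether the counting used strand is not stated. Mmp14 (chr14:54431612-54445364) was measured at 152, 26.4, 118 and 25.2 CPM with vehicle and at 587, 425, 402 and 465 CPM with LPS. Vehicle libraries split into 2 higher (1 and 3) and 2 lower (2 and 4), the LPS libraries were close to each other, and the groups did not overlap. Its log2 fold change was 2.55 (SE 0.57, adjusted p = 0.00311).

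The inhibitors moved in opposite directions. Timp1 (chrX:20870166-20874735) was measured at 0.630, 0.242, 0.507 and 0.355 CPM with vehicle, from 7 to 18 counts, and at 71.2, 138, 142 and 77.7 CPM with LPS. Its log2 fold change was 7.93 (SE 0.37, adjusted p = 2.92e-07), a 244-fold rise. Timp2 (chr11:118301069-118355740) was measured at 532, 416, 505 and 436 CPM with vehicle and at 33.3, 39.3, 26.6 and 36.7 CPM with LPS. The groups did not overlap for either gene, and Timp2 varied less within groups than Timp1. The log2 fold change of Timp2 was -3.80 (SE 0.16, adjusted p = 1.75e-07), a level 13.9-fold lower.

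**Figure D2:**
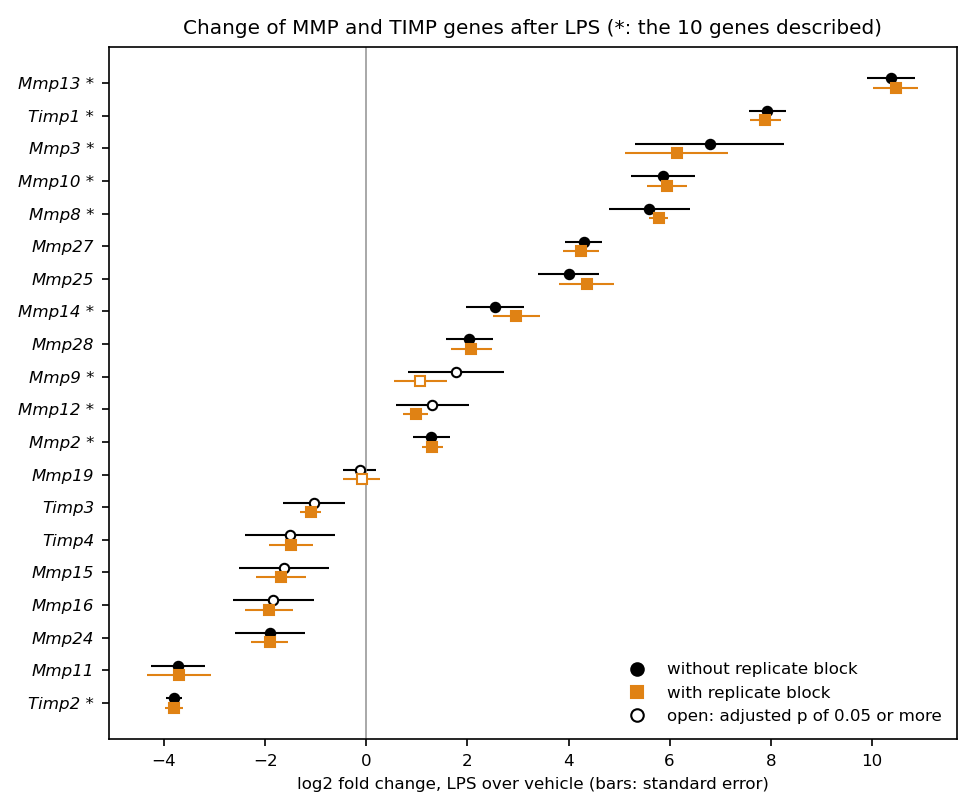
Log2 fold change, LPS over vehicle, of the 20 tested MMP and TIMP genes, with bars of 1 standard error; circles are the fit without and squares the fit with the replicate number as a block, open symbols have an adjusted p of 0.05 or more, and stars mark the 10 genes described. Mmp13 lies at 10.38 and Timp2 at -3.80, and the block turned Mmp12, Mmp15, Mmp16, Timp3 and Timp4 from open to filled.

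Levels of different genes were compared per kilobase of exon (CPM per kb). With vehicle the order was Timp2 at 121 ± 14.1, Mmp12 at 33.3 ± 24.0, Mmp9 at 15.5 ± 11.3, Mmp14 at 13.5 ± 10.8, Mmp13 at 6.67 ± 2.92, Mmp8 at 2.36 ± 2.28, Mmp2 at 0.570 ± 0.227, Timp1 at 0.488 ± 0.192, Mmp3 at 0.192 ± 0.311 and Mmp10 at 0.101 ± 0.0892 CPM per kb (SD, n = 4). Only Timp2 stood clear of its neighbor in that order by more than 1 SD on each side. After LPS the order was Mmp13 at 8894 ± 1720, Timp1 at 121 ± 42.9, Mmp8 at 115 ± 86.7, Mmp12 at 82.3 ± 83.1, Mmp14 at 78.8 ± 13.9, Mmp9 at 52.9 ± 78.6, Mmp3 at 22.6 ± 36.7, Timp2 at 8.72 ± 1.41, Mmp10 at 6.21 ± 3.41 and Mmp2 at 1.40 ± 0.498 CPM per kb. Mmp13 at the top and Mmp2 at the bottom were apart from their neighbors, and the genes between them overlapped their neighbors within 1 SD.

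Summed over all 23 MMP genes, the level was 147, 48.5, 88.1 and 37.2 CPM per kb with vehicle and 11693, 9726, 7122 and 8572 CPM per kb with LPS. Mmp12 made up 41.1% ± 7.64 of that sum with vehicle and 0.842% ± 0.707 with LPS, and Mmp13 made up 9.78% ± 4.41 and 96.1% ± 2.30. Without Mmp13 the MMP sum was 73.6 ± 49.0 CPM per kb with vehicle and 384 ± 299 with LPS, where LPS library 1 alone reached 827. The sum over the 4 TIMP genes was 123 ± 13.99 CPM per kb with vehicle and 130 ± 42.3 with LPS, a difference within the spread, while its make-up turned over. Timp2 went from 98.5% ± 0.576 of the TIMP sum to 7.34% ± 2.73, and Timp1 from 0.388% ± 0.112 to 92.1% ± 3.17. The ratio of the MMP to the TIMP sum was 1.06, 0.446, 0.676 and 0.326 with vehicle and 130, 58.6, 42.6 and 87.9 with LPS. These sums are descriptions of transcripts per length, without a test.

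**Figure D3:**
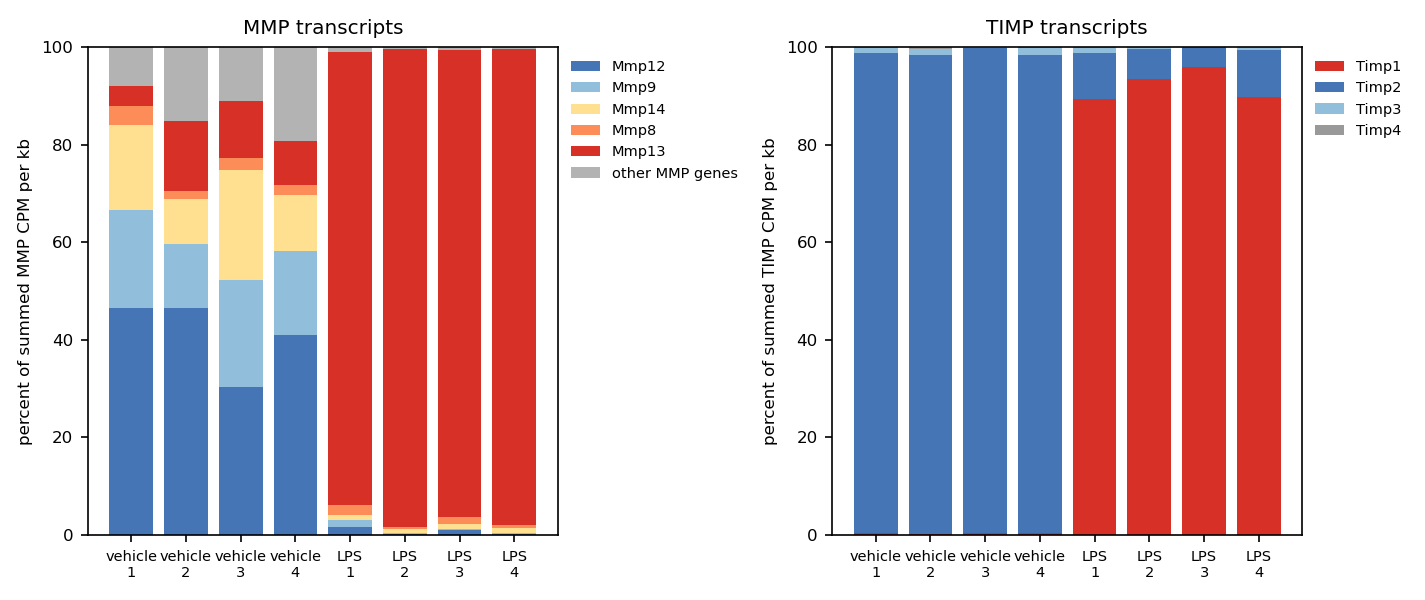
Share of each gene in the summed CPM per kb of all MMP genes (left) and all TIMP genes (right), in percent, 1 bar per library. Mmp13 fills 92.9% to 98.0% of the MMP bars with LPS, and Timp1 replaces Timp2 as the main TIMP transcript.

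Of the 10 genes, 5 (Mmp13, Mmp12, Mmp3, Mmp10 and Mmp8) lie in the MMP cluster of chromosome 9, in which 10 MMP genes span 427 kb from 7272514 to 7699585. In order from Mmp13, the genes are Mmp12, Mmp1b, Mmp3, Mmp1a, Mmp10, Mmp8, Mmp27, Mmp20 and Mmp7. Mmp13, Mmp3, Mmp10, Mmp8 and Mmp27 were higher after LPS. Mmp12 lies between Mmp13 and Mmp3 and had the highest vehicle level of the cluster, at 33.3 CPM per kb. Mmp7 and Mmp20 had 0 counts in every library, Mmp1a had at most 1 count and Mmp1b had 9 counts in LPS library 1 alone, so none of these 4 was tested. A count of 0 allows up to 3 counts a library, or 0.0980 to 0.1495 CPM of these totals, for counting error only.

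**Figure D4:**
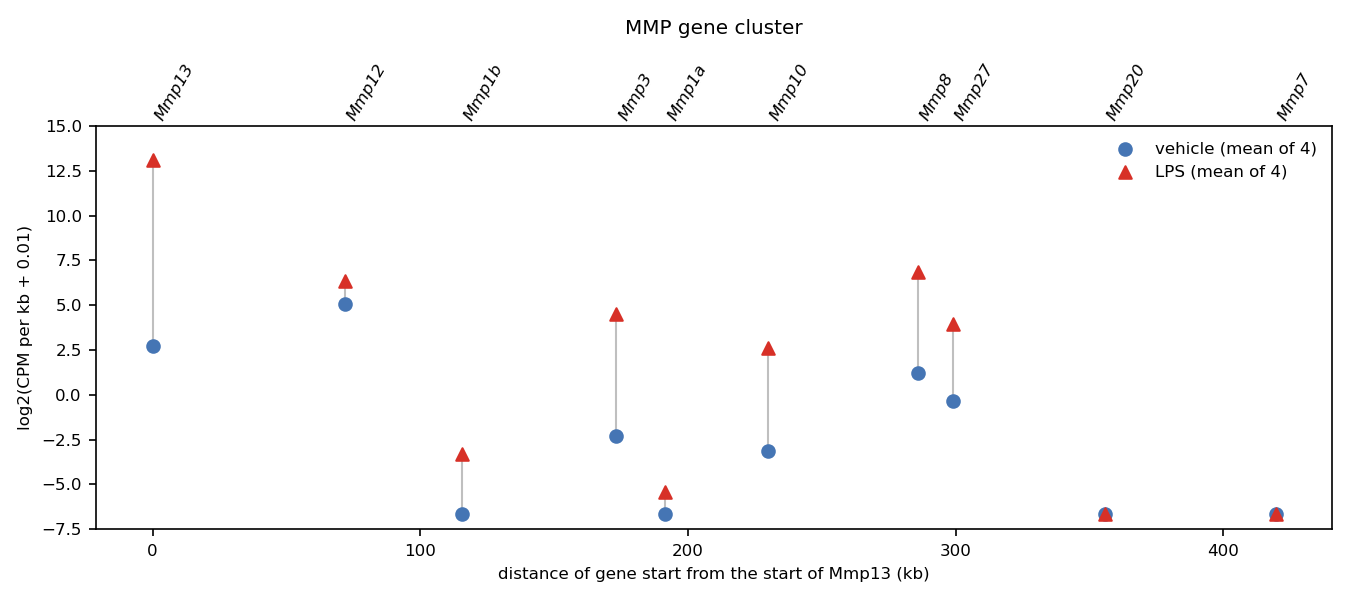
Mean level (log2 of CPM per kb + 0.01, 4 libraries) of the 10 MMP genes of the cluster against the distance of each gene's start from that of Mmp13 in kb, vehicle in blue and LPS in red. Expressed genes that rose lie among genes with few or no counts, such as Mmp1a beside Mmp3 and Mmp20 beside Mmp27.

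Of the 17 other MMP and TIMP genes, 10 passed the filter and 5 of them were called, 3 higher and 2 lower, against 64.1% of all tested genes called. Mmp25, a GPI-anchored MMP of leukocytes, rose from 1.15 ± 1.28 to 18.8 ± 4.01 CPM (log2 fold change 4.00, SE 0.61, adjusted p = 0.000292, and 5.21 without vehicle library 3). Mmp27 rose from 1.74 ± 0.672 to 34.6 ± 15.3 CPM (4.3, SE 0.36, adjusted p = 7.05e-06), and Mmp28, known as epilysin, from 0.226 ± 0.122 to 0.943 ± 0.309 CPM (2.04, SE 0.46, adjusted p = 0.00336). Mmp11, stromelysin-3, fell from 0.942 ± 0.234 to 0.0669 ± 0.0520 CPM (-3.72, SE 0.54, adjusted p = 0.000220), with at most 2 counts in an LPS library. Mmp24, a membrane-type MMP, fell from 1.20 ± 0.695 to 0.323 ± 0.205 CPM (-1.91, SE 0.69, adjusted p = 0.0337), a call lost without any of 6 of the 8 libraries. Mmp19 stood at 19.8 ± 8.41 and 18.0 ± 6.04 CPM (-0.13, adjusted p = 0.739), and 28.3% of its exon sequence overlaps genes on the opposite strand, as does 13.6% of that of Mmp24, 12.03% of that of Mmp28 and 21.3% of that of Timp3. The list's median log2 fold change was -1.27, against -0.11 for all tested genes. Mmp25 and Mmp28 passed the filter only with their LPS libraries and Mmp11 only with its vehicle libraries. Their directions are thus not independent of the filter. Mmp24 had fewer than 10 counts in every LPS library. With 10 counts required of every library, 1 gene of the list was called.

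The membrane-type Mmp15 and Mmp16 and the inhibitors Timp3 and Timp4 did not pass the test without a block, and with the replicate number as a block all 4 were lower, which took the list from 5 called genes to 9 of 10, against 65.3% of all tested genes called and 35.6% lower in that fit. Mmp15 was measured at 2.38, 6.57, 0.603 and 5.47 CPM with vehicle and at 1.79, 1.36, 0 and 1.73 CPM with LPS (log2 fold change -1.63, adjusted p = 0.133 without and 0.0160 with the block). Timp3, a matrix-bound TIMP, was measured at 11.0, 9.79, 2.22 and 12.1 CPM with vehicle and at 7.54, 3.92, 0.886 and 4.92 CPM with LPS (-1.03, adjusted p = 0.164 and 0.00216). Library 3 was the lowest of each group for both genes. For Mmp16 the values were -1.84 with an adjusted p of 0.0663 and 0.00897, and for Timp4 they were -1.50 with 0.164 and 0.0175. Mmp16 was also called without LPS library 4 or vehicle library 3, and Timp4 without vehicle library 3. Without both libraries numbered 3, a choice made after seeing the values, 9 genes of the list were called as well, against 67.7% of the genes tested in that setting. Some markers of other glial cells had the same low library, and others did not. Library 3 was the lowest of both groups for 7 of 10 oligodendrocyte precursor markers and 4 of 10 astrocyte markers. Among these, Olig1, an oligodendrocyte lineage factor, and the astrocyte filament gene Gfap were at 2.06 and 1.52 CPM in vehicle library 3 against 7.56 to 13.8 and 5.39 to 9.02 CPM in the other vehicle libraries. In contrast, the astrocyte enzyme gene Aldh1l1 was highest in library 3 of both groups, at 12.3 and 5.04 CPM, and in LPS library 3 Gja1, Aldoc and Vcan were not the lowest, at 35.3, 1.96 and 60.7 CPM. The markers Olig1, Olig2, Cspg4, Gfap, Aqp4, Aldh1l1 and Aldoc were chosen after their values were seen. The summed level of the 10 oligodendrocyte precursor markers was 92.9, 143, 27.7 and 135 CPM with vehicle and 139, 65.4, 63.8 and 63.8 CPM with LPS. Per length, Vcan, a proteoglycan, was most abundant with LPS and over both groups together, and Olig1 with vehicle. Vcan rose from 16.6 ± 7.58 to 61.2 ± 30.3 CPM (1.88, adjusted p = 0.00432), while the other 9 markers summed to 82.9 ± 45.3 and 21.8 ± 13.5 CPM. Of the 7 tested, Vcan was the 1 higher and 3 were lower (Cspg4, Olig1 and Olig2), against 30.3% of all tested genes higher and 33.8% lower. With the replicate number as a block 1 was higher and 6 were lower, against 29.7% and 35.6% of all tested genes. The summed level of the 10 astrocyte markers was 38.2, 47.7, 20.6 and 45.9 CPM with vehicle and 124, 41.4, 45.6 and 49.4 CPM with LPS. Gja1, a connexin, was most abundant with LPS and rose from 0.873 ± 0.221 to 48.6 ± 33.2 CPM. The other 9 astrocyte markers summed to 37.2 ± 12.3 and 16.5 ± 6.89 CPM. Of the 8 astrocyte markers tested, Gja1 was the 1 higher and 3 were lower (Gfap, Aqp4 and Aldh1l1). This compares with 30.3% of all tested genes higher and 33.8% lower. With the block 4 were lower, against 35.6% of all tested genes. The part of other glial cells in these low-level genes was not tested.

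**Figure D5:**
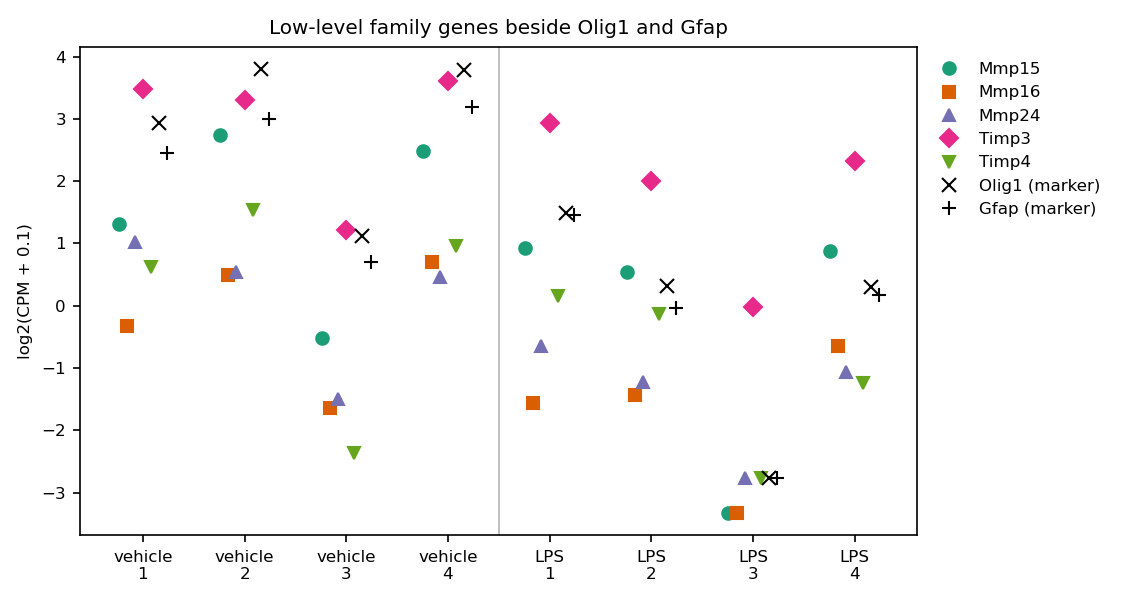
Level, as log2(CPM + 0.1), of Mmp15, Mmp16, Mmp24, Timp3 and Timp4 beside the marker genes Olig1 and Gfap in each library, with points offset sideways. Library 3 is the lowest of its group for all 7 genes, and Mmp15 and Mmp16 are at 0 in LPS library 3.

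Genes that activate proMMPs or restrain that activation were followed in a list of 11, of which 9 were tested, 5 were higher, 3 were lower and 1 did not pass, against 64.1% of all tested genes called. Plau, urokinase, the protease that turns plasminogen into plasmin, fell from 245 ± 41.0 to 17.1 ± 6.41 CPM (log2 fold change -3.84, adjusted p = 1.91e-06). Its receptor Plaur rose from 21.5 ± 5.39 to 141 ± 46.5 CPM (2.71, adjusted p = 1.40e-05). Serpinb2, an inhibitor of plasminogen activators, rose from 0.650 ± 0.621 to 1222 ± 896 CPM (10.86, adjusted p = 7.72e-06). Furin and Pcsk7, convertases that process membrane-type proMMPs, were higher and Pcsk6 and Serpine2 lower, 4 genes named after their values were seen. The median log2 fold change of the list was 0.89.

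Of 15 ADAM and ADAMTS metalloproteinases, relatives of the MMPs, 10 were tested, 2 were higher and 4 lower, with a median of -0.24, against 64.1% of all tested genes called. Adam8, a leukocyte sheddase, rose from 1127 ± 95.4 to 3477 ± 368 CPM (1.63, adjusted p = 9.85e-06), and Adamts4, an aggrecanase, from 0.536 ± 0.192 to 5.98 ± 2.22 CPM (3.47, adjusted p = 4.08e-05). Adamts1 (-1.96, adjusted p = 3.82e-05) and Adamts10 (-3.85, adjusted p = 1.45e-06) fell. Adam10 and Adam17, sheddases of many cell surface proteins that are named here after their values were seen, also fell, by 1.00 and 0.58 on the log2 scale. Adam9 stood at 472 ± 34.0 and 504 ± 17.5 CPM (0.09, adjusted p = 0.453).

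Among 10 partners and clearance receptors of MMPs and TIMPs, all tested, 3 were higher, 2 lower and 5 not called, with a median of -0.15, against the same 64.1% called. Lcn2, lipocalin 2, whose human protein binds human MMP9 and shields it from degradation, rose from 5.08 ± 5.01 to 6119 ± 771 CPM (10.23, adjusted p = 2.52e-06). Bsg, basigin, an inducer of MMPs on neighboring cells, rose from 176 ± 12.6 to 439 ± 39.8 CPM (1.32, adjusted p = 8.06e-06), and Thbs1, thrombospondin 1, from 82.1 ± 73.6 to 2722 ± 1635 CPM (5.05, adjusted p = 0.000174). Lrp1, an endocytic receptor that clears MMPs and TIMPs, fell from 2173 ± 410 to 646 ± 73.3 CPM (-1.75, adjusted p = 1.97e-05). Cd63, a tetraspanin that binds Timp1, fell from 285 ± 24.6 to 145 ± 12.3 CPM (-0.97, adjusted p = 4.72e-05).

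Matrix proteins cut by MMPs formed a list of 18, of which 15 were tested, 2 were higher, 5 lower and 8 not called, with a median of -1.09, against 64.1% of all tested genes called. With the replicate number as a block 2 were higher and 8 lower, against 65.3% called, as Col18a1 (adjusted p = 0.000196), Lama5 (0.0046) and Bcan (0.00699), named after their values were seen, were then lower. Fn1, fibronectin, fell from 491 ± 428 to 30.1 ± 28.0 CPM (-4.03, SE 0.85, adjusted p = 0.00222), with -3.18 to -4.75 when 1 library was left out, and was highest in library 1 of each group. The laminin chain gene Lamb2 fell (-3.43, adjusted p = 4.54e-06) while Lamc1 rose (1.08, adjusted p = 0.000111), and the collagen IV gene Col4a1 fell (-1.55, adjusted p = 0.0198) while Col4a2 rose (2.40, adjusted p = 0.000897). Dag1, dystroglycan (-0.81, adjusted p = 9.57e-05), and Agrn, agrin (-1.10, adjusted p = 0.0174), fell. Spp1, osteopontin, stood at 10083 ± 1643 and 14829 ± 4362 CPM (0.56, adjusted p = 0.0646), and was called by DESeq2 (0.61, adjusted p = 0.0130) and by edgeR without LPS library 1 or 4 or vehicle library 1 (0.66 to 0.70).

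Of 14 transcription factors known to act at MMP promoters, all tested, 10 were higher, 1 was lower and 3 did not pass, with a median of 0.90, against 30.3% of all tested genes higher and 33.8% lower. Fosl1, an AP-1 subunit, rose from 0.217 ± 0.154 to 17.2 ± 5.05 CPM (6.29, SE 0.42, adjusted p = 1.71e-06), but 57.2% of its exon sequence overlaps that of Ccdc85b on the opposite strand, and without knowledge of strand use their reads cannot be told apart. Ets2 rose from 117 ± 21.9 to 862 ± 44.9 CPM (2.88, adjusted p = 5.49e-07), Ets1 from 6.94 ± 1.82 to 28.4 ± 6.65 CPM (2.04, adjusted p = 6.08e-05) and Nfkb1 from 190 ± 11.7 to 335 ± 6.19 CPM (0.82, adjusted p = 5.47e-05). The call of Nfkb1 was lost with libraries scaled to their totals, at 0.14 (adjusted p = 0.164). Junb, another AP-1 subunit, was called higher (1.30, adjusted p = 0.0358) although LPS library 3, at 54.3 CPM, lay below every vehicle library, and the call was lost with the replicate number as a block (adjusted p = 0.0804) and without any of 7 of the 8 libraries. Fos, named after its value was seen, was the gene that fell, from 125 ± 41.2 to 33.4 ± 4.29 CPM (-1.91, adjusted p = 6.49e-05). AP-1 subunits thus moved in both directions at 24 h.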

How the data were processed

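The authors aligned single-end 50-base reads to GRCm38 with GSNAP within HTSeqGenie and deposited raw counts of uniquely aligned reads per Ensembl gene, without normalization. Kit and sequencer differ between the labels and the paper. Strand use and annotation release are not given in the sources used here. Symbols, positions and exon lengths came from GENCODE vM21 (52489 of 52636 identifiers matched).

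Here 4 LPS and 4 vehicle libraries were compared with edgeR 4.0.16 (TMM, filterByExpr with minimum counts of 10 and 15, quasi-likelihood test, two-sided, Benjamini-Hochberg over all tested genes) in R 4.3.3. Genes with few counts in the vehicle libraries could pass that filter through LPS libraries alone, as Serpinb2, Fosl1, S100a8 and Dcn did. The direction of such genes is not independent of the filter. SE was the log2 fold change divided by the root of F. CPM used TMM library sizes, and intervals and floors cover counting error only. Tables and figures were made in Python 3.11.15. The fits were tested on simulated data. Alternatives were DESeq2 1.42.0, other filters, scalings, thresholds and lengths, leaving out libraries, and the replicate number as a block. Over 8382 genes, deviations of same-numbered libraries from their group means correlated (r = 0.363, 0.179, 0.177 and 0.110 for replicates 1 to 4). The block therefore took the numbers to pair the libraries, by the data and not by the labels, which state no pairing. The main fit had no block, so its calls leave any pairing out. Differently numbered libraries 2 and 4 also correlated (r = 0.141 and 0.122), above the value of replicate 4. The members, gene lists and tests were chosen with earlier results of these data known. Named genes were the members, the other MMP and TIMP genes past the filter, 4 genes of smallest adjusted p and 2 of highest per-length level in each list, each marker list's most abundant gene and those at the floor of 3 counts, and matrix genes in counts of up to 5. A gene of the lists is counted but not reported singly here.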

Additional observations from a re-analysis of the deposited data

Results flagged for a closer look

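In 3 of 40 groups of libraries examined (20 tested MMP and TIMP genes in each condition), 1 library lay far from the other 3 of its group, and chance alone flags about 1 in 20 groups. All were LPS library 1. Mmp9 was at 603.8 CPM there and at 30.5 to 60.39 CPM in the other LPS libraries, Mmp3 at 139.9 CPM against 5.772 to 9.188 CPM, and Mmp27 at 57.51 CPM against 26.44 to 27.83 CPM. Mmp13 in LPS library 1 was at 29046 CPM, against 18227 to 25463 CPM in the others.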

How the results depend on the processing

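Scaling to library totals without TMM, chosen after seeing the data, shifted the median log2 fold change of all genes by -0.68 (to -0.79) and gave 1988 higher and 8457 lower genes. Mmp2 was then at 0.62, Nfkb1 at 0.14 and Spp1 at -0.14, none of them called. Mmp19 was at -0.82 (adjusted p = 0.0393) and Adam9 at -0.58 (adjusted p = 0.000905), both called lower. In that setting 9 other MMP and TIMP genes, 12 matrix genes and 7 factors were called. Upper quartile scaling shifted the median by -0.16, made 39.6% of calls higher and put Adam9 at -0.06. A log2 fold change of at least 1 left 2224 higher and 2998 lower genes. Where 10 counts were required of each library, 4 members were higher, since Mmp3, Mmp10 and Timp1 were not tested, and 1 gene of the other MMP and TIMP list was called. DESeq2 gave no adjusted p for Mmp3 and Mmp9 and called 6 members higher, and called Spp1 (0.61). The replicate block called Mmp12 (0.98). It also called 9 other MMP and TIMP genes, and so many were called without both libraries numbered 3, where Mmp12 was not (1.32). Among the other genes named by the rule the block changed only the call of Junb, while 8 rather than 5 matrix genes were lower. Leaving out 1 library at a time moved Mmp9 between -0.18 and 2.35, with no call, and Mmp12 between 0.37 and 1.98, called only without vehicle replicate 1. It moved Mmp19 between -0.26 and 0.20, with 0.09 without LPS replicate 1 and 0.20 without vehicle replicate 1, and without both libraries numbered 1 Mmp19 was at 0.40, none of them called. The longest transcript as length raised the Mmp14 share with LPS to 1.56%. The cause of these differences was not tested. Over all alternatives the adjusted p ran from 0.000891 to 0.128 for Mmp2, from 0.0705 to 0.792 for Mmp9 and from 0.00867 to 0.594 for Mmp12. Genes with under 10 counts in a library, such as Mmp3, Mmp10 and Mmp11, have imprecise fold changes.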

Other observations

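Library 1 of each group was the highest of its group for Mmp2, Mmp8, Mmp9, Mmp12 and Mmp14. With vehicle, Mmp9 was at 105 CPM and Mmp14 at 152 CPM there, and with LPS Mmp12 was at 1452 CPM and Mmp8 at 581 CPM. Fn1, which is not an MMP, was also highest in library 1 of each group, at 1127 CPM with vehicle and 66.2 CPM with LPS. Timp1 was lowest in LPS library 1 of the LPS libraries, at 71.2 CPM, and highest in vehicle library 1 of the vehicle libraries, at 0.630 CPM. Mitochondrial genes took 0.4004% to 0.518% of counts with vehicle and 0.114% to 0.237% with LPS.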
